A study of Ovis aries with 23 samples.

Results

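The infarct core of the fetal sheep heart was compared with the border zone around it, using the 3 arrays titled as fetal infarct and the 3 titled as fetal border, 6 of the 23 arrays of the series. Fetuses of 105 days of gestation underwent ligation of the second diagonal branch of the left anterior descending artery, a coronary artery that supplies the front wall of the left ventricle, and tissue was taken 3 days later. The other fetal arrays, 3 of remote muscle from ligated hearts and 3 of hearts after sham surgery, and the 3 infarct and 3 border arrays of 6-month-old adolescent sheep operated on in the same way, were used for reference. No transgene, strain or further treatment is given in the labels. Each sample is total RNA of a dissected piece of ventricle, so that fewer cells of a type and less RNA per cell cannot be told apart, and where infarct ends and border begins was set by that dissection. The labels do not say whether 2 samples came from 1 animal, so p-values measure the spread between these samples. RNA was hybridised in 1 colour to ovine arrays of 60-base probes, and levels are given as scaled log2 signal, the log2 intensity of a probe minus the 75th percentile of its array, on which a difference of 1 is a doubling.

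After a coronary artery is closed, dying heart muscle cells release signals that activate resident cells and draw in neutrophils, then monocytes and macrophages, which take up debris before fibroblasts lay down new matrix. The border zone holds surviving muscle next to the dead core. Cardiomyocytes of the fetus burn mostly glucose and lactate and turn to fatty acids after birth, and fetal hearts are known for repair with less scar than adult hearts. Interleukins 1 and 6 and tumour necrosis factor are early signals of this response, and MYH7 and MB mark the muscle itself.

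Array brightness (the 75th percentile of intensity) lay between 487 and 865 in the 6 arrays, and 73.37% to 79.76% of 15008 probes were well above background. Over the 12451 probes tested, border array 3 was nearer to the remote arrays, with a mean root-mean-square distance of 0.63 on the log2 scale, than to the infarct arrays, at 0.93. Border array 1 was nearer to the infarct arrays (0.60) than to the remote arrays (0.86), and border array 2 lay at 0.64 and 0.76. Values without border array 3 are therefore given below for the counts of each list described and for the genes whose difference that array moved by more than 1.5 times. Of the 12 heart muscle cell markers, 2 were measured, MYH7 and MB, and both were well above background on all 6 arrays. No named gene of the B cell and nerve marker lists was tested. The 7 measured liver and plasma protein markers were high in fetal sham arrays 1 and 3, where their median stood 7.24 and 3.02 above the mean of the 12 fetal arrays, but not in the infarct and border arrays, where it lay between -1.75 and -0.25. Position on the slide and group cannot be told apart, since each group held 1 position on each of the 3 slides.

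No probe differed between fetal infarct and fetal border at an adjusted p under 0.05 in limma's moderated test (0 of 12451, 0%), and the smallest adjusted p was 0.339. An unadjusted p under 0.05 was reached by 1550 probes, 12.4% of those tested, 828 higher in infarct (6.65%) and 722 lower (5.80%). With arrays scaled on their median in place of the 75th percentile this split was 594 higher and 1069 lower. The highest border value lay under the lowest infarct value for 1351 probes (10.9%), and the lowest border value lay above the highest infarct value for 1227 (9.85%). The count at an unadjusted p under 0.05 was 446 without border array 3 and 741 without infarct array 3. In limma with array weights 643 probes passed the adjusted threshold, and in the authors' deposited values 2 did, both probes of IL1A. The weighted fit gave border array 2 a weight of 7.15 and the other 5 arrays weights between 0.52 and 2.59.

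Of 887 named genes tested, 94 were higher in infarct and 51 lower at an unadjusted p under 0.05, and the median difference of the 887 was 0.06, against 0.00 over all probes. A higher mean in infarct was found for 485 of the 887 and for 6253 of the 12451 probes. All infarct arrays lay above all border arrays for 115 of the 887 and below them for 75. No named gene passed the adjusted threshold, so all differences between the fetal regions below are given as values with 95% confidence intervals, and the adjusted p is 0.339 or more for each. A pair of unnamed probes is shown by sequence, since the files give no gene for them and the sequence is their only identity. The pair is, in each direction, the unnamed probe with the smallest p that was above background on all 6 arrays, had an open forward frame and lacked the letters AATAAA. Both are written as deposited, from 5′ to 3′, in lower case because no part is singled out, and their places in the genome were not used here.
A_70_P034476: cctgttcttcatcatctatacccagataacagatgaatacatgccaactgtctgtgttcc
A_70_P047026: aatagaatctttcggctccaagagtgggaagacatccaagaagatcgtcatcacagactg
Probe A_70_P034476 read 1.33, 1.34 and 1.81 in infarct and 0.89, 0.44 and -0.17 in border (log2 difference 1.11, interval 0.55 to 1.66). Probe A_70_P047026 read 0.91, 0.94 and 0.43 in infarct and 1.65, 1.51 and 2.03 in border (difference -0.97, interval -1.45 to -0.49). In both probes the groups did not overlap.

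Of 13 measured genes of the cytokine and chemokine list, 10 had a higher mean in the infarct core than in the border. Border array 3 was the lowest of the 6 arrays for IL1A, IL6, IL10, TNF, CXCL8 and IL1B. Of the 13, 8 were higher and 1, CXCL10, was lower at an unadjusted p under 0.05, and the list's median difference was 0.93. Without border array 3 that median was 0.59 and 1 of 13 was higher at that p. The list lacks the chemokines MCP-3 and CCL25, which differed by -1.81 and 0.27 without border array 3. In limma with array weights MCP-3 passed the adjusted threshold as lower, at -2.32. IL1A, an alarm cytokine released by dying cells, read 0.84, 0.75 and 0.11 in infarct and -0.37, -0.70 and -2.93 in border. All infarct arrays were above all border arrays, and the difference was 1.90 ± 0.55 (SE), a 3.73-fold higher mean (interval 0.74 to 3.06), or 1.10 without border array 3. Its second probe gave 2.17. In the deposited values both IL1A probes passed the threshold, with differences of 1.33 and 0.90 and limma adjusted p-values of 0.0455 and 0.0188.

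IL6, which drives the acute phase response, differed by 2.79 ± 0.98 (interval 0.73 to 4.84). It read -0.09, -1.11 and -0.30 in infarct and -1.07, -2.51 and -6.27 in border, so that border array 1 lay just above the lowest infarct array, and it was well above background on 2 of 3 border arrays. Border array 3 was the border array not well above background, so its value of -6.27 is uncertain, and without it the difference was 1.29 ± 0.77. IL10, which restrains inflammation, read -2.24, -2.05 and -1.33 in infarct and -2.65, -2.95 and -4.60 in border, with no overlap (difference 1.53, interval 0.47 to 2.59). TNF read -1.53, -2.13 and -0.96 in infarct and -1.67, -3.15 and -3.95 in border, with overlap (difference 1.38, interval 0.35 to 2.41). The neutrophil attractant CXCL8 ranged from -1.43 to 1.48 in infarct and from -4.07 to -0.14 in border (difference 2.03, interval 0.07 to 3.98). The differences of IL10, TNF and CXCL8 were 0.93, 0.87 and 1.06 without border array 3. IL1B, made by activated macrophages, differed by 1.28 (interval 0.19 to 2.38). CXCL10, a chemokine for T cells that interferon induces, lay the other way, at -2.94, -4.84 and -3.15 in infarct and -0.48, -2.98 and -2.09 in border (difference -1.79, interval -3.53 to -0.05).

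**Figure D1:**
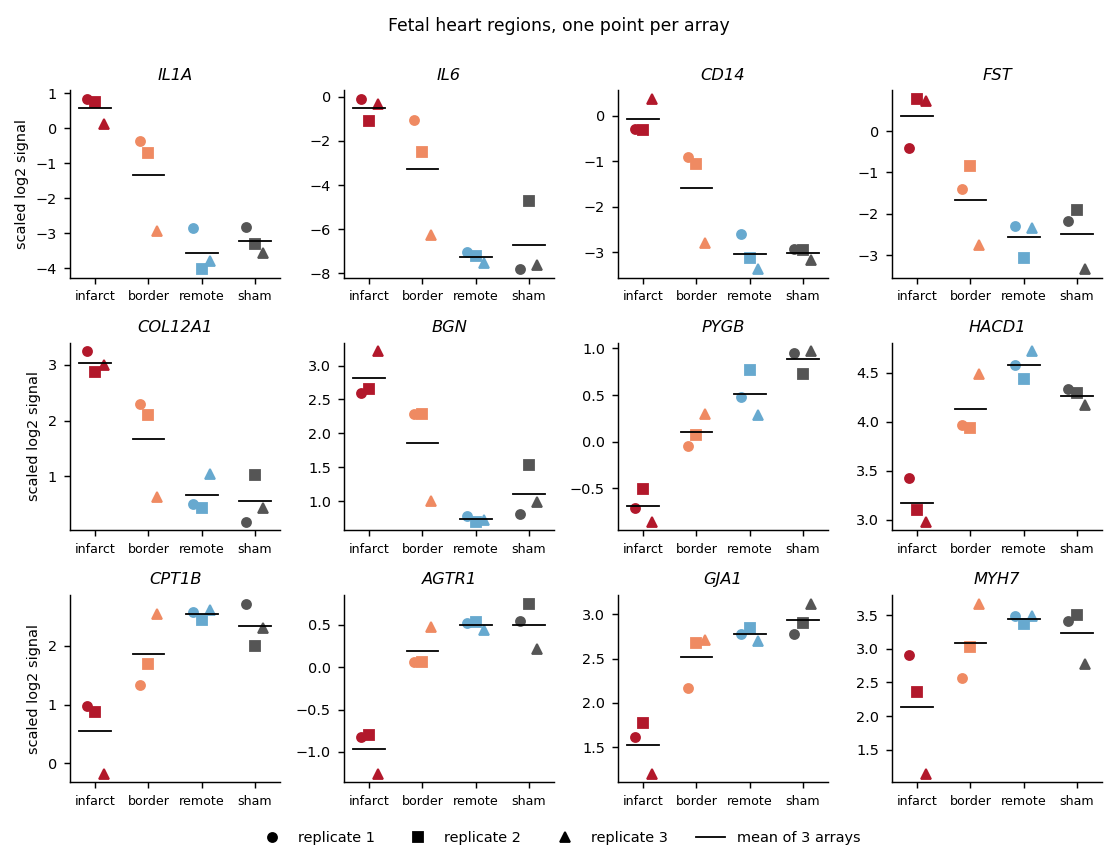
Scaled log2 signal (y axis, log2) of 12 genes in infarct, border, remote and sham arrays of the fetal heart (x axis), with 1 point per array, its shape giving the replicate number, and a line at the mean of 3 arrays. Border array 3 (triangles) read -2.93 for IL1A and -6.27 for IL6, the lowest of the 6 infarct and border arrays for both genes.

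The 8 measured macrophage and monocyte markers all had a higher mean in infarct, from 0.02 for TYROBP to 1.93 for ITGAM, with border arrays 1 and 2 closer to infarct and border array 3 closer to remote muscle. Of the 8, 5 were higher at an unadjusted p under 0.05, and the median difference was 1.35. The median of these markers, centred over the 12 fetal arrays, was 1.62, 1.47 and 2.43 in infarct, 1.25, 0.93 and -0.76 in border and -0.78, -1.02 and -1.46 in remote. Without border array 3 the median difference was 0.76 and none of the 8 was past that p in limma. CD14, the co-receptor for bacterial lipopolysaccharide on monocytes, read -0.28, -0.31 and 0.37 in infarct and -0.91, -1.05 and -2.79 in border, with no overlap (difference 1.51, interval 0.46 to 2.57). ITGAM, the alpha chain of the leukocyte integrin Mac-1, read -3.29, -3.13 and -3.14 in infarct and -4.30, -4.43 and -6.60 in border (difference 1.93, interval 0.24 to 3.61), and was well above background on 2 of 3 border arrays. FCER1G, the signalling chain of Fc receptors, differed by 1.38 (interval 0.22 to 2.53), also with no overlap. The differences of CD14, ITGAM and FCER1G were 0.91, 1.18 and 0.81 without border array 3. Of the other immune lists, 1 of 2 measured neutrophil markers (ITGB2) and 1 of 5 T and NK cell markers (IL2RA) were higher at an unadjusted p under 0.05, and neither was without border array 3. ITGB2, a leukocyte integrin chain, differed by 1.65 (interval 0.16 to 3.15), or 0.82 without border array 3. The other neutrophil marker, LTF, which encodes lactoferrin of neutrophil granules, read -3.21, -3.77 and -4.58 in infarct and -1.96, -2.08 and -3.37 in border (difference -1.38, interval -3.19 to 0.42). The T cell receptor chains CD3D and CD3E differed by -0.36 (interval -1.02 to 0.29) and -0.25 (interval -0.88 to 0.37). The median over the 2 neutrophil markers, which lay in opposite directions, was 0.13, or -0.51 without border array 3. The neutrophil list lacks the cathelicidin genes CATHL1B, CATHL3 and BAC5, whose products are stored in neutrophil granules. These differed by -2.35, -2.42 and -2.14 without border array 3. In limma with array weights CATHL1B and CATHL3 passed the adjusted threshold, at -2.43 and -2.41.

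All 10 measured genes of lysosome and phagocytosis had a higher mean in infarct and 4 were past an unadjusted p of 0.05, with a median difference of 1.15. The median was 0.58 without border array 3 and none of the 10 was past that p in limma. The lysosomal protease LGMN read 4.45, 4.58 and 5.32 in infarct and 4.41, 4.07 and 2.19 in border, with no overlap (difference 1.22, interval 0.26 to 2.19). CTSB and CTSS, cysteine proteases of the lysosome, differed by 1.34 (interval 0.27 to 2.42) and 1.32 (interval 0.08 to 2.57), and in both border array 1 lay within the infarct range. The differences of LGMN, CTSB and CTSS were 0.54, 0.72 and 0.68 without border array 3. PSAP, the precursor of the saposins, differed by 0.92 on its brighter probe, or 0.48 without border array 3, and by -0.29 on its second probe.

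Genes of innate sensing and the acute phase had a median difference of 0.64 over 16 measured genes, and 4 of them were higher at an unadjusted p under 0.05. The median was 0.38 without border array 3 and none of the 16 was past that p in limma. PTGS2, the inducible cyclooxygenase that makes prostaglandins, read -0.96, -2.16 and -1.48 in infarct and -1.71, -2.76 and -4.17 in border (difference 1.35, interval 0.44 to 2.25), but its second probe gave -0.72. TLR4, the receptor for lipopolysaccharide, read -3.26, -3.53 and -2.42 in infarct and -3.53, -3.80 and -5.18 in border (difference 1.10, interval 0.14 to 2.06), and TLR2 differed by 1.52 (interval -0.07 to 3.10). The differences of PTGS2, TLR4 and TLR2 were 0.70, 0.60 and 0.78 without border array 3. TLR8 was well above background on 2 infarct arrays and on no border array (difference 1.27 ± 0.60). Its infarct mean, which includes an array not well above background, lay 1.75-fold above a bound for the border. This bound takes each border array's own value or its lowest signal well above background, whichever is higher. It concerns the means of these arrays and does not cover the spread between them. IRAK4, the kinase that carries signals of IL-1 and Toll-like receptors, read -2.08, -1.65 and -1.50 in infarct and -2.80, -2.08 and -2.71 in border (difference 0.79, interval 0.31 to 1.26). Its groups met at -2.08 to 2 decimals but did not overlap, and without border array 3 the difference was 0.70.

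**Figure D2:**
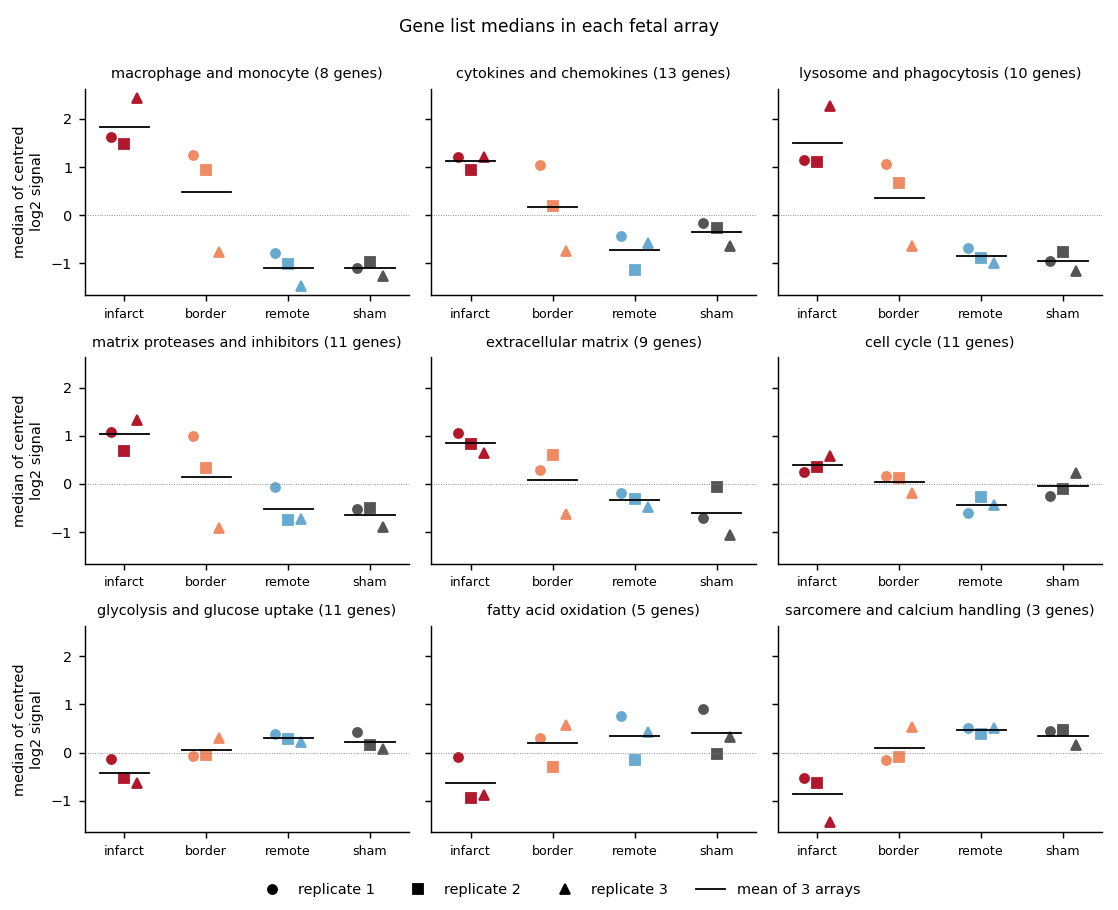
Median over the measured genes of a list of scaled log2 signal centred on the 12 fetal arrays (y axis, log2), in infarct, border, remote and sham arrays (x axis), 1 point per array, with a line at the mean of 3 arrays. The macrophage and monocyte median was 1.25 and 0.93 in border arrays 1 and 2 and -0.76 in border array 3, and the sarcomere median was lower in all infarct arrays than in all border arrays.

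Of 9 measured matrix genes, 6 had a higher mean in infarct, and border array 3 was the lowest of the 6 arrays for the 5 named here. Of the 9, 3 were higher and none lower at an unadjusted p under 0.05 in limma, and the median difference was 0.76. The median was 0.30 without border array 3 and 1 of the 9 was past that p. COL12A1, a collagen that lies on the surface of fibrils, read 3.24, 2.86 and 2.99 in infarct and 2.30, 2.09 and 0.63 in border, with no overlap (difference 1.36, interval 0.50 to 2.22). The proteoglycan BGN read 2.60, 2.66 and 3.21 in infarct and 2.29, 2.28 and 1.00 in border, also with no overlap (difference 0.97, interval 0.26 to 1.68). COL1A1 and COL3A1, the main fibrillar collagens of scar, differed by 1.10 (interval 0.06 to 2.14) and 0.66 (interval -0.73 to 2.05), and COL6A1 by 0.86 (interval -0.22 to 1.93). The differences of COL12A1, BGN, COL1A1 and COL3A1 were 0.84, 0.54, 0.71 and 0.30 without border array 3.

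Of 11 measured matrix proteases and inhibitors, 10 had a higher mean in infarct, and 6 were higher and none lower at an unadjusted p under 0.05, with a median difference of 0.80. The median was 0.59 without border array 3 and none of the 11 was past that p in limma. TIMP1, an inhibitor of matrix metalloproteinases, read 7.81, 7.57 and 7.31 in infarct and 7.15, 6.80 and 4.40 in border, with no overlap (difference 1.45, interval 0.09 to 2.80). PLAUR, the urokinase receptor, read 1.00, 0.39 and 1.02 in infarct and 0.50, -0.47 and -3.15 in border, with overlap (difference 1.84, interval 0.24 to 3.44). The differences of TIMP1 and PLAUR were 0.59 and 0.79 without border array 3. MMP14 and MMP2, proteases that cut matrix, differed by 0.80 (interval 0.13 to 1.46) and 0.58 (interval 0.06 to 1.10) with no overlap, and MMP9 by 1.06 (interval -1.16 to 3.29), or 0.64 without border array 3, with 1 array of each group above background. S100A4, a calcium-binding protein of fibroblasts and leukocytes, differed by 1.84 (interval 0.10 to 3.59), or 0.85 without border array 3. Among 13 adhesion genes 5 were higher and 1 lower at an unadjusted p under 0.05, with a median difference of 0.85. The median was 0.49 without border array 3, none was higher at that p in limma and 1 was lower. ITGAV and ITGB1, chains of matrix-binding integrins, differed by 1.01 (interval 0.31 to 1.71) and 0.61 (interval 0.15 to 1.06), both with no overlap, or 0.53 and 0.47 without border array 3. The lower member, GJA1, encodes connexin 43, the main gap junction protein of ventricular muscle. GJA1 read 1.62, 1.77 and 1.20 in infarct and 2.17, 2.68 and 2.71 in border (difference -0.99, interval -1.63 to -0.35).

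Growth factor genes had a median difference of 0.08 over 37 measured genes, with 4 of them higher and none lower at an unadjusted p under 0.05. The share of higher genes was near that over all named genes, 94 of 887. The median was 0.05 without border array 3 and 2 were higher at that p. FST, 1 of the 4, encodes follistatin, a secreted protein that binds activin, and read -0.40, 0.78 and 0.72 in infarct against -1.39, -0.84 and -2.75 in border. The groups did not overlap, and the difference was 2.03 ± 0.57, a 4.07-fold higher mean (interval 0.82 to 3.23), or 1.48 without border array 3. IGFBP6, which binds IGF2, differed by 0.65 (interval 0.17 to 1.13) and EGFR by 0.93 (interval 0.19 to 1.66). HGF, a growth factor of mesenchymal cells, differed by 1.30 (interval 0.11 to 2.48), or 0.64 without border array 3. TGFB1, IGF1 and IGF2 had differences of 0.21 (interval -0.38 to 0.80), 0.46 (interval -0.59 to 1.51) and 0.03 (interval -0.59 to 0.65), and the IGF1 value was 0.19 without border array 3.

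Cell cycle genes had a median difference of 0.37 over 11 measured genes, of which 2 were higher and none lower at an unadjusted p under 0.05. The median was 0.42 without border array 3 and none of the 11 was past that p in limma. All infarct arrays lay above all border arrays for 6 of the 11 and below them for 2, beside 115 and 75 of the 887 named genes. TYMS, which makes thymidylate for DNA synthesis, read -0.60, -0.54 and 0.10 in infarct and -0.69, -1.24 and -1.51 in border (difference 0.80, interval 0.14 to 1.46). CCNB1, the cyclin of entry into mitosis, read 1.64, 1.71 and 2.01 in infarct and 1.33, 1.23 and 0.38 in border (difference 0.80, interval 0.03 to 1.58). Its partner kinase CDK1 differed by 0.66 (interval -0.09 to 1.41) and CCND3 by 0.37 (interval -0.03 to 0.77), both with no overlap. The differences of CCNB1 and CDK1 were 0.50 and 0.42 without border array 3.

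Genes of energy metabolism mostly had lower means in infarct than in border, 4 of 5 in fatty acid oxidation and 9 of 11 in glycolysis and glucose uptake. The members of these lists with higher means were CPT1A (0.32), LDHA (0.56) and SLC2A1 (0.51). CPT1B, which carries long-chain fatty acids into muscle mitochondria, read 0.97, 0.88 and -0.18 in infarct and 1.33, 1.69 and 2.55 in border, with no overlap. Its mean was 2.47-fold lower, a difference of -1.30 ± 0.37 (interval -2.09 to -0.52), or -0.95 without border array 3. Of 5 measured genes of fatty acid oxidation, 2 were lower and none higher at an unadjusted p under 0.05, with a median of -1.14. The median was -0.86 without border array 3 and 1 of the 5 was lower at that p. PPARA, a nuclear receptor that switches on fatty acid use, differed by -0.59 (interval -1.14 to -0.04), or -0.29 without border array 3. LPL, which frees fatty acids from circulating lipid, differed by -1.14 (interval -2.41 to 0.14) on its brightest probe, and the coactivator PPARGC1A by -1.39 (interval -2.97 to 0.19). The list's median of -1.14 is the value of that LPL probe, and the other LPL probes gave -0.65 and -0.57. The value of LPL was -0.51 without infarct array 2 and that of PPARGC1A -0.76 without infarct array 3.

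PYGB, the brain form of glycogen phosphorylase, read -0.71, -0.51 and -0.86 in infarct and -0.05, 0.07 and 0.30 in border (difference -0.80, interval -1.25 to -0.35). PYGM, the muscle form, read 1.12, 1.30 and 0.78 in infarct and 1.57, 1.95 and 2.16 in border (difference -0.83, interval -1.56 to -0.10). PYGL, the liver form, lay the other way, at 2.2, 2.25 and 2.45 in infarct and 1.94, 1.17 and 0.89 in border (difference 0.97, interval 0.33 to 1.61). In all 3 forms the groups did not overlap. Of 11 genes of glycolysis and glucose uptake, 4 were lower and none higher at an unadjusted p under 0.05, with a median difference of -0.42. The median was -0.31 without border array 3 and none of the 11 was past that p in limma. ENO3, the muscle enolase, differed by -1.20 (interval -2.27 to -0.13), SLC2A4, the insulin-regulated glucose transporter, by -1.43 (interval -2.85 to -0.01) and ALDOA by -0.42 (interval -0.84 to 0.00).

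Among mitochondrial genes, 2 of 4 measured members of oxidative phosphorylation and the tricarboxylic acid cycle were lower at an unadjusted p under 0.05, or 1 without border array 3. The 4 had lower means in infarct on their brightest probes, but that of UCP3, at -0.16, was above background on 1 of the 6 arrays, and its second probe gave 1.66. ATP5MC1, a subunit of the ATP synthase ring, read 7.23, 7.18 and 6.68 in infarct and 7.41, 7.60 and 8.18 in border (difference -0.70, interval -1.14 to -0.25), and its 4 probes ranged from -0.70 to -1.03. SLC25A4, which exchanges ATP for ADP across the inner membrane, read 6.93, 6.91 and 6.26 in infarct and 7.40, 7.42 and 7.79 in border (difference -0.84, interval -1.53 to -0.14). COX5A differed by -0.74 (interval -1.57 to 0.09), or -0.42 without infarct array 3. MDH, a malate dehydrogenase whose form the files do not give, read 1.94, 2.39 and 2.21 in infarct and 2.61, 2.77 and 3.28 in border (difference -0.70, interval -1.13 to -0.28). ENDOG, a nuclease kept inside mitochondria, read 1.11, 1.07 and 0.50 in infarct and 1.29, 1.75 and 2.19 in border (difference -0.85, interval -1.37 to -0.33).

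HACD1, an enzyme of very long chain fatty acid synthesis in muscle, had the second smallest p of the named genes that were lower in infarct. It read 3.42, 3.10 and 2.98 in infarct and 3.97, 3.94 and 4.49 in border, with no overlap (difference -0.96, interval -1.53 to -0.40). For the 3 measured genes of sarcomere and calcium handling the interval included 0. MYH7, the slow beta myosin heavy chain, read 2.90, 2.35 and 1.14 in infarct and 2.57, 3.02 and 3.67 in border, with overlap (difference -0.96, interval -2.33 to 0.41), or -0.46 without infarct array 3. MB, the oxygen-binding protein myoglobin, read 6.26, 5.64 and 5.41 in infarct and 6.88, 6.73 and 7.38 in border (difference -1.23, interval -2.48 to 0.03). TPM1, the thin filament protein tropomyosin, read 7.03, 7.17 and 6.79 in infarct and 7.40, 7.45 and 8.08 in border (difference -0.64, interval -1.32 to 0.04). The groups did not overlap for MB and TPM1. All 3 stayed well above background on every infarct array.

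Of 10 measured genes of natriuretic and stress hormones, 2 angiotensin receptors were lower and HSD11B1 higher at an unadjusted p under 0.05, with a median of -0.36, and without border array 3 the median was -0.26 and 1 was lower and 1 higher. AGTR1, the angiotensin receptor that raises blood pressure, read -0.82, -0.80 and -1.26 in infarct and 0.06, 0.06 and 0.47 in border (difference -1.15, interval -1.89 to -0.42). AGTR2, the form abundant in fetal tissue, read -4.09, -3.82 and -3.80 in infarct and -3.19, -2.84 and -2.81 in border (difference -0.95, interval -1.74 to -0.17). In both receptors the groups did not overlap, and without border array 3 the differences were -1.02 and -0.89. HSD11B1, which regenerates cortisol, differed by 0.92 (interval 0.01 to 1.83), or 0.32 without border array 3, and NR3C2, the mineralocorticoid receptor, by -0.63 (interval -1.34 to 0.07), or -0.39 without infarct array 3.

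Among 7 heat shock and antioxidant genes, 1 was higher and 2 lower at an unadjusted p under 0.05, and without border array 3, 1 was higher and none lower in limma. TXN, the thiol reductant thioredoxin, read 4.19, 4.13 and 4.88 in infarct and 3.99, 3.74 and 3.39 in border, with no overlap (difference 0.69, interval 0.23 to 1.16). SOD2, the mitochondrial superoxide dismutase, read 1.61, 0.86 and 0.07 in infarct and 1.61, 1.66 and 1.99 in border (difference -0.91, interval -1.68 to -0.14), and CRYAB, the small heat shock protein of muscle, differed by -0.78 (interval -1.53 to -0.02). Without infarct array 3 the differences of TXN, SOD2 and CRYAB were 0.45, -0.52 and -0.46. HSPA1A ranged from 0.61 to 3.38 in infarct and from 1.32 to 4.63 in border (difference -0.85, interval -2.88 to 1.17), and its difference lay between -1.67 and -0.01 with 1 array left out. Of the mast cell markers 2 were measured. FCER1A, the alpha chain of the IgE receptor, read -4.24, -4.71 and -2.84 in infarct and -2.63, -2.31 and -1.54 in border (difference -1.77, interval -3.63 to 0.08), while KIT differed by -0.18 (interval -1.21 to 0.86), or -0.06 without border array 3. VEGFA, a growth factor for vessels, and HIF1A, a transcription factor active at low oxygen, differed by -0.89 (interval -2.02 to 0.25) and 0.40 (interval -0.33 to 1.12). With 1 array left out VEGFA ranged from -1.53 (without infarct array 1) to -0.10 (without infarct array 3), and HIF1A from -0.09 to 0.67.

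CALCA, which encodes calcitonin and a related neuropeptide, read -3.26, -3.58 and -3.43 in infarct and -4.06, -3.91 and -3.87 in border (difference 0.52, interval 0.18 to 0.87). The probe named MDD2 on the array read 2.45, 2.64 and 3.00 in infarct and 2.13, 1.97 and 1.36 in border (difference 0.88, interval 0.34 to 1.42). The probe named EM4C had the smallest p of the named genes but was well above background on 2 infarct arrays and on no border array. Its infarct mean lay 1.04-fold above a border bound made as for TLR8. Of the genes followed whatever their values, FN1, ACTC1 and TNNT2 have no named probe and SPP1 was not tested.

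Infarct and border were each set against remote muscle. Against the same 3 remote arrays, 2171 probes passed the adjusted threshold in infarct (17.4%) and 0 in border (0%, smallest adjusted p 0.972 in limma, with 565 probes at an unadjusted p under 0.05). Both comparisons share the remote arrays. Without border array 3, 39 probes were higher in border than in remote at the adjusted threshold and none lower, and 1288 had an unadjusted p under 0.05. IL6 was not well above background on any remote array, and its mean was at least 29.7-fold higher in infarct, by the bound used for TLR8. The border mean lay 4.31-fold above that remote bound. Border array 3 was not well above background for IL6, so 4.31-fold is not a lower limit. For IL1A the infarct stood 4.13 above remote and the border 2.23, and for LGMN the values were 2.81 and 1.59. For CPT1B, HACD1 and PYGB the infarct lay -1.99, -1.41 and -1.21 from remote and the border -0.69, -0.45 and -0.40. Border means thus lay between infarct and remote in these 5 genes. This did not hold for every list, and the median of the mast cell markers against remote was -0.50 in infarct and 0.48 in border. Over the 8 macrophage markers the median of border minus remote was 1.59, and 2.22 without border array 3, with ITGAM not well above background on any remote array.

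**Figure D3:**
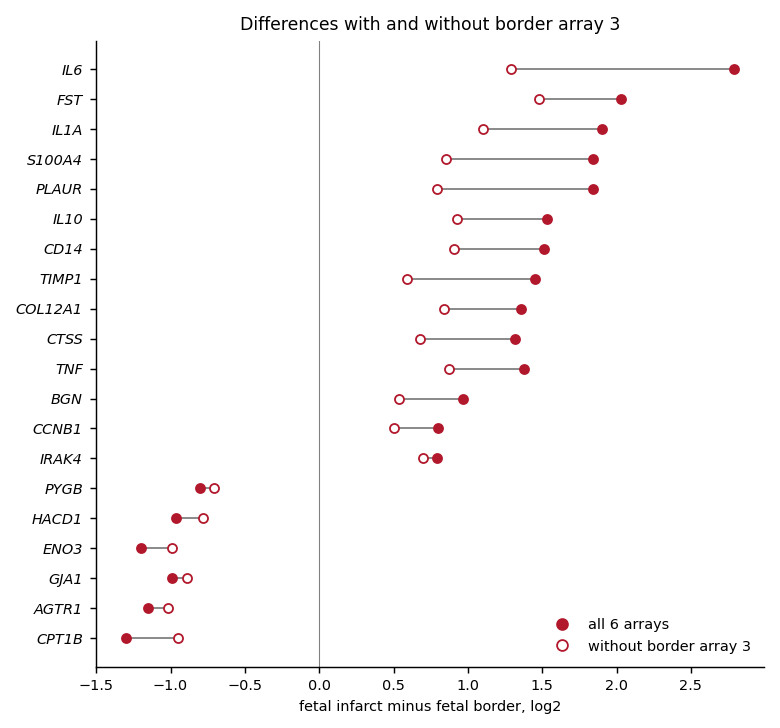
Fetal infarct minus fetal border (x axis, log2) for 20 genes (y axis) over all 6 arrays (filled points) and without border array 3 (open points). IL6 moved from 2.79 to 1.29 and PLAUR from 1.84 to 0.79, while IRAK4 moved from 0.79 to 0.70 and AGTR1 from -1.15 to -1.02.

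The adolescent infarct and border arrays were used to test which differences depended on age. Their brightness was 757, 876 and 1345 in infarct and 672, 522 and 230 in border. In adolescent border array 3, 64.35% of probes were well above background, against 78.24% to 79.17% in the other adolescent infarct and border arrays. The weighted fit gave adolescent infarct array 3 and border array 3 weights of 0.31 and 0.28, against 1.33 to 2.04 for the others. The effect of brightness on the age difference was not tested. For 218 probes (1.75%) the infarct-minus-border difference itself differed between fetal and adolescent hearts at an adjusted p under 0.05 in limma, 210 of them with the fetal difference above the adolescent one (1.69%) and 8 with it below (0.0643%). In adolescents 1327 probes were higher (10.7%) and 1895 lower (15.2%) in infarct than in border. All 24 named genes among the 218 had a fetal difference above the adolescent one, and 13 of them are described here. All 3 measured genes of sarcomere and calcium handling passed, as did 4 of 11 of glycolysis and glucose uptake. Among 13 cytokines and chemokines, 8 macrophage and monocyte markers and 9 matrix genes the count was 0 in each list. With 1.75% of all probes called, lists of this size cannot show whether their genes depended on age.

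MYH7 had the largest age difference among the named genes, at 5.20 ± 0.92 (limma adjusted p = 0.0079). In adolescents it read -3.78, -0.55 and -4.10 in infarct and 2.89, 3.30 and 3.86 in border, a fall of 6.16 on the log2 scale set against the fetal difference of -0.96. The infarct arrays of the adolescents were far below those of the fetus, while the border arrays of both ages overlapped. ENO3 had an age difference of 4.41 (adjusted p = 0.00726), with -3.41, -0.40 and -2.88 in adolescent infarct and 3.51, 2.83 and 3.80 in adolescent border. MB followed with 4.12 (adjusted p = 0.015) and PRKAA2, a catalytic subunit of the energy sensor AMPK, with 4.10 (adjusted p = 0.0158). PRKAA2 was well above background on 1 of 3 adolescent infarct arrays, and in the authors' deposited values its age difference was 0.76 (limma adjusted p = 0.264).

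Among other genes described above, the age difference was 3.31 for PYGM, 2.98 for SLC25A4 and 2.86 for TPM1, each with an adjusted p of 0.00726. It was 2.70 for CPT1B, 2.02 for HACD1 and 1.53 for PYGB, with adjusted p-values of 0.0126, 0.0103 and 0.0127. SLC2A4 (3.84), CRYAB (2.27) and NR3C2 (1.99) passed at adjusted p-values of 0.0482, 0.0396 and 0.0396, and the second SLC2A4 probe (3.85) had 0.051. The fit of CRYAB lacks adolescent border array 3, whose spot was an outlier. In the inflammatory genes the interval of the age difference included 0, and it was wide, from -1.86 to 3.94 for IL6, from -0.36 to 2.93 for IL1A, from -4.80 to 0.73 for CXCL8 and from -1.01 to 1.98 for CD14.

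The count of 218 fell to 103 without adolescent border array 3, 106 without fetal border array 1 or 2, 109 without adolescent infarct array 1, 112 without fetal infarct array 1 and 115 without fetal infarct array 2 or adolescent infarct array 3, and was 335 without adolescent infarct array 2. MYH7, ENO3, PYGM, SLC25A4, TPM1, CPT1B, HACD1 and PYGB passed with any 1 of the 12 arrays left out, whereas the calls of MB, PRKAA2, CRYAB, NR3C2 and SLC2A4 were lost without 3, 5, 8, 8 and 9 of the 12 arrays. None of the 13 passed in normexp with all spots. Of the 8 genes that passed with any array left out, CPT1B lost its call in the deposited values (1.44, limma adjusted p = 0.0727) and PYGB with arrays scaled on their median (1.38, limma adjusted p = 0.059). CRYAB, NR3C2 and SLC2A4 lost theirs with arrays scaled on their median and with no filter, NR3C2 also in the deposited values and SLC2A4 also with quantile normalization and with the replicate block.

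**Figure D4:**
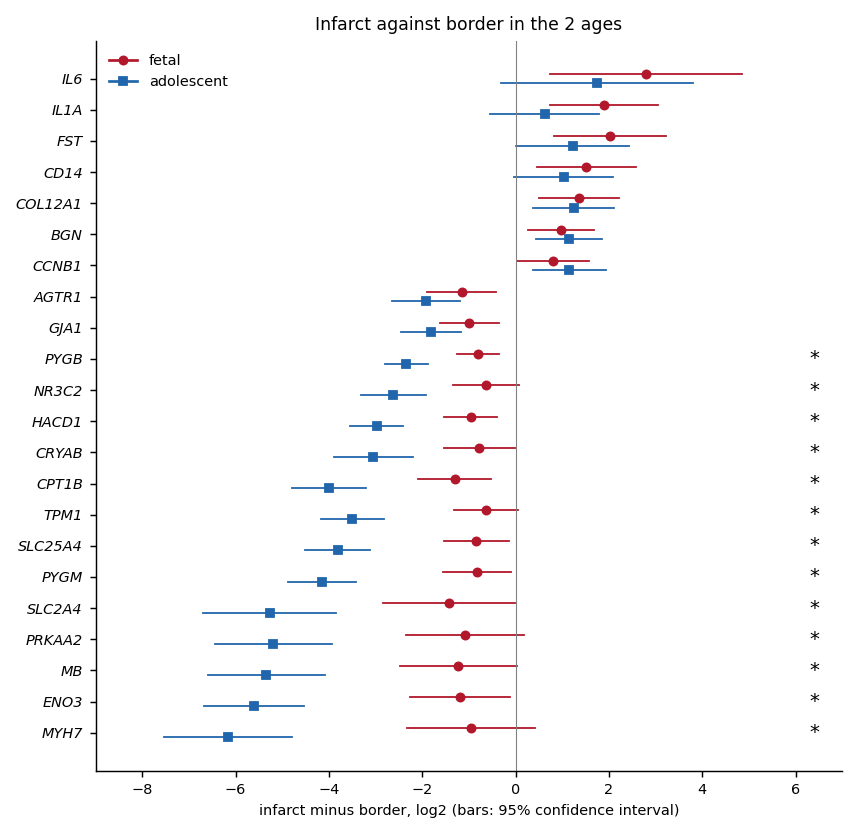
Infarct minus border (x axis, log2) of 22 genes (y axis) in fetal (circles) and adolescent hearts (squares), with bars for the 95% confidence interval of limma's fit, 3 arrays in each group except 2 for CRYAB in adolescent border, and an asterisk where the difference between ages passed an adjusted p of 0.05. Intervals of the 2 ages overlap for IL6, IL1A, FST and CD14 and are apart for the 13 genes with an asterisk, among them MYH7 at -0.96 and -6.16.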

How the data were processed

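Probe intensities are the authors' deposited scanner values, background-subtracted by Feature Extraction 10.1.1.1, per the file headers. A second deposited table holds log2 values of 8411 probes with array medians of 9.267 to 9.305. Beyond limma, which the submitters' processing notes name, how it was made and centred is not given in the sources used here.

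Outlier spots were left out, spots of a probe averaged, and the 75th percentile of each array was subtracted from log2 intensity. A probe was tested if well above background on at least 2 arrays of 1 of the 8 groups. All 23 arrays were fitted in limma 3.58.1 (R 4.3.3) with eBayes, with Benjamini-Hochberg adjustment over 12451 probes and a threshold of 0.05. The script was tested on simulated data. The number of arrays limits the precision.

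Names, given to 1746 of 15008 probes, came from the files' columns and RefSeq's ARS-UI_Ramb_v3.0 gene table, and a gene is its brightest tested probe. Genes are named by rule. They are the 8 with the largest moderated t in each direction, since fewer than 5 passed the threshold, up to 4 members by moderated t of each list described, the 4 with the largest age difference (no named gene passed below 0) and a set followed whatever its values. CXCL10, TYROBP, CATHL1B, CATHL3, BAC5, MCP-3, CCL25, CPT1A, LDHA, SLC2A1 and the other age-difference genes were named after their values were seen. Genes and lists were chosen with earlier results of these data known.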

Additional observations from a re-analysis of the deposited data

Results flagged for a closer look

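The difference between infarct and border itself differed between fetal and adolescent hearts for 218 probes, by limma's test of that difference. Among the genes described, the fetal difference lay above the adolescent one by 5.20 for MYH7, 4.41 for ENO3, 4.12 for MB, 4.10 for PRKAA2, 3.84 for SLC2A4, 3.31 for PYGM, 2.98 for SLC25A4, 2.86 for TPM1, 2.70 for CPT1B, 2.27 for CRYAB, 2.02 for HACD1, 1.99 for NR3C2 and 1.53 for PYGB, all on the log2 scale. Groups of 3 arrays are too small for the check for a single array far from the others.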

How the results depend on the processing

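Between fetal infarct and border, 2 probes passed in the deposited values and 643 with array weights, and 0 under the other 12 settings and with any 1 array left out (0 to 0). The age-difference count of 218 became 133 with arrays scaled on their median, 604 with array weights, 0 with normexp at offset 50 and 0 at offset 0, and 103 to 335 with 1 array left out. In normexp, spots with local background above their signal (8 on adolescent border array 2, 9 on fetal border array 2) went with interquartile ranges of 0.31 against 4.06 and 1.16 against 4.12, and without such spots, an alternative chosen after seeing the data, the count was 216. Correlations of same-numbered arrays, which shared a slide, were 0.265, 0.308 and 0.001, and those of different-numbered arrays lay between -0.37 and 0.108. Not all 3 same-numbered pairs stood out, so the numbers were not taken to pair samples, though a shared slide or animal is not excluded. The replicate block gave 0 and 219. Signs turned for 9 of 79 genes. With normexp at offset 50 these were CALCA (-0.23), EGFR (-0.22), EM4C (-0.41), MMP9 (-0.32) and TLR8 (-0.21), at offset 0 CALCA (-0.08), EM4C (-0.20) and MMP9 (-0.12), and without the spots under background EM4C (-0.09) and MMP9 (-0.04). IGF1 gave -0.23 with array weights and IGF2 -0.06 with the array median. With 1 array left out, HIF1A ranged from -0.09 (without infarct array 1) to 0.67, IGF2 from -0.01 (without infarct array 1 or 2) to 0.11, and UCP3 from -0.34 to 0.14 (without infarct array 2). Apart from the spots in normexp, the cause was not tested. Of 320 list medians 311 kept their sign. EM4C, TLR8, UCP3 and MMP9 lie near background, which limits them.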

Other observations

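DRA, a class II antigen presentation gene, read -4.66 on fetal border array 2, against 0.15 to 1.93 on the other 5 infarct and border arrays. ISG15, an interferon-induced protein, differed by -1.07 (interval -2.48 to 0.34), and none of 9 measured interferon genes had an unadjusted p under 0.05 in limma.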
